A study of Homo sapiens with 16 samples.

Results

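The genes described here are 10 members of transforming growth factor beta (TGF-beta) and bone morphogenetic protein (BMP) signalling, out of 58735 genes counted. They are the BMP regulator KCP, the ligand genes BMP4, TGFB1, TGFB2 and INHBA, the inhibitory SMAD genes SMAD6 and SMAD7, and the inhibitor-of-DNA-binding genes ID1, ID2 and ID3. They were taken by gene name, and the set was chosen by measured values, namely the read counts of KCP, which were far higher after treatment in one cell line, MDA-MB-231. That contrast therefore picked the members, and their treatment differences in MDA-MB-231 are given as a description with no test. The rule did not use the treatment contrast in SUM159 or that between the DMSO groups of the lines. Both are tested for members other than KCP, although the contrast between DMSO groups shares the MDA-MB-231 DMSO libraries with the contrast that picked the set. The members were chosen with earlier results of these data known, so these tests may not be independent of the choice.

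Poly(A) RNA was sequenced from 16 libraries of MDA-MB-231 and SUM159PT (SUM159 below), established human cell lines from triple-negative breast cancers that carry the label wild type. Each line was exposed for 48 h either to YES1i (CH6953755), which inhibits YES1, a kinase of the Src family, at 8 uM, or to its solvent DMSO, giving 4 libraries for each of MDA-MB-231 YES1i, MDA-MB-231 DMSO, SUM159 YES1i and SUM159 DMSO. MDA-MB-231 was grown in RPMI and SUM159 in Ham's F12, so line and medium cannot be told apart. The 4 libraries of a group are described as technical replicates, so the p-values below measure only the spread between these libraries.

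TGF-beta and activin ligands bind receptor kinases that phosphorylate SMAD2 and SMAD3, while BMP ligands bind receptors that phosphorylate SMAD1, SMAD5 and SMAD9, and both arms share SMAD4. The inhibitory proteins SMAD6 and SMAD7 are themselves induced by the pathway and feed back on it, SMAD6 mainly on the BMP arm and SMAD7 on both. ID1, ID2 and ID3 are classical BMP-induced genes whose products bind E proteins and keep them off DNA. KCP encodes kielin/chordin-like protein, a secreted protein with cysteine-rich repeats that, in mice, enhances BMP signalling and dampens that of TGF-beta and activin. In breast cancer cells TGF-beta is known for restraining growth early and favouring invasion late.

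The promoters of KCP, of the 3 ID genes and of SMAD7 are shown because KCP had the largest treatment difference of the members, in MDA-MB-231, and because the ID and inhibitory SMAD genes are direct targets of the pathway. Each stretch runs from 250 bases before to 50 after a RefSeq start site on GRCh38.p14, read 5′ to 3′ on the gene's strand, and capitals mark CAGAC, the SMAD-binding element, or GTCTG, which is the same word on the other strand. A GC-rich SMAD site of BMP-responsive genes, GGCGCC, was searched as well and is its own reverse complement. The KCP stretch is chr7:128910660-128910959 on the minus strand, that of ID1 is chr20:31605039-31605338 on the plus strand, that of ID2 is chr2:8681806-8682105 on the plus strand, that of ID3 is chr1:23559452-23559751 on the minus strand, and that of SMAD7 is chr18:48950916-48951215 on the minus strand, its promoter 1 of 3 in RefSeq.
KCP: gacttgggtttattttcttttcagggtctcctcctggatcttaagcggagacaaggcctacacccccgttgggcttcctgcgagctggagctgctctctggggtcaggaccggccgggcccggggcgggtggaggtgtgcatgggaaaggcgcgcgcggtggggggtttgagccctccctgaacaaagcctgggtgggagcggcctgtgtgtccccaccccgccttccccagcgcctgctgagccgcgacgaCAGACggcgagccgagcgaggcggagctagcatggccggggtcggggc
ID1: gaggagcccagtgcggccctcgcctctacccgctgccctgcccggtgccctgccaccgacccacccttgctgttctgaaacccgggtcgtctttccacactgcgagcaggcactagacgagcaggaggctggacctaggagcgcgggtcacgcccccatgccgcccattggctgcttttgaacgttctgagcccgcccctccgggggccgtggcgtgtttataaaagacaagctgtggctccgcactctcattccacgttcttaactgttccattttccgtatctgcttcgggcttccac
ID2: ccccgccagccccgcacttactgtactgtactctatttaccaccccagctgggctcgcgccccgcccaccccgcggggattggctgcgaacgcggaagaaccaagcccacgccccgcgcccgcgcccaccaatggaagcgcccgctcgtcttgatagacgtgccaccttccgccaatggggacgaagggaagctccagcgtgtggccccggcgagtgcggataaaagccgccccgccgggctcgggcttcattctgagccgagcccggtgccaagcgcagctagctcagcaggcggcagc
ID3: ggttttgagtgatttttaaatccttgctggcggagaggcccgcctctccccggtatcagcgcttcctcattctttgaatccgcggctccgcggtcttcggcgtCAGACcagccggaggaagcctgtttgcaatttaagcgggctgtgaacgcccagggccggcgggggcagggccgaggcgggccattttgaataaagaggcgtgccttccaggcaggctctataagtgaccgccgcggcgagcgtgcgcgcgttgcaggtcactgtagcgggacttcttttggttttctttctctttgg
SMAD7: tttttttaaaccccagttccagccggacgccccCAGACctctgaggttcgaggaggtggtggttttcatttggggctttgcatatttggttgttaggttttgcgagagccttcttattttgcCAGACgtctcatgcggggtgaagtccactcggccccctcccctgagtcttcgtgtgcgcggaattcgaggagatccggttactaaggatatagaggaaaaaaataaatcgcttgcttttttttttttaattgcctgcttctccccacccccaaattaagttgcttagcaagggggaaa
CAGAC occurred 1 time in the KCP stretch, 1 time in that of ID3 and 2 times in that of SMAD7. Among promoters not shown, it occurred 2 times in TGFB2, 1 time in INHBA and 1 time in each of the 3 of BMP4. SMAD7 promoter 2 held it 1 time and promoter 3 held it 0 times. Neither word occurred in the stretches of ID1, ID2, SMAD6 and TGFB1. Of all 35116 human promoters of this length in the RefSeq table, 45.3% hold CAGAC on either strand and 19.2% hold GGCGCC, so these matches are a description of the letters in the window. Among the 14 promoters of the 10 members, GGCGCC was found only in promoter 1 of BMP4, 2 times.

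Total counts ran from 15876171 to 36261542 per library, and 3 counts, the limit that a count of 0 allows, came to 0.0858 to 0.193 CPM, a library's counts scaled to a common total, depending on the library. YES1 itself averaged 93.2 ± 5.33 CPM in YES1i-treated and 94.2 ± 3.91 CPM in DMSO-treated MDA-MB-231, and 88.8 ± 7.57 CPM in YES1i-treated and 103 ± 3.60 CPM in DMSO-treated SUM159 (SD, n = 4 each). The drug acts on the kinase, and its gene fell slightly in SUM159 (log2 fold change -0.21, edgeR adjusted p = 0.00392) and was not called in MDA-MB-231 (-0.02, edgeR adjusted p = 0.860). The oestrogen and progesterone receptor genes ESR1 and PGR averaged at most 0.607 CPM in any group, while ERBB2 was present at 107 to 118 CPM. Of the 4 endothelial markers 3 were called higher with YES1i in MDA-MB-231 and 2 in SUM159, with summed levels of 14.8 to 18.4 CPM in YES1i against 6.15 to 9.00 CPM in DMSO libraries of MDA-MB-231, and of 18.3 to 20.0 CPM in YES1i against 9.99 to 11.9 CPM in DMSO libraries of SUM159. The endothelial genes called higher were PECAM1, KDR and VWF in MDA-MB-231, and KDR and VWF in SUM159. The remaining gene of this list, the endothelial cadherin gene CDH5, averaged at most 0.0228 CPM in any group. The leukocyte list summed to 12.1 to 14.5 CPM in YES1i against 9.97 to 11.8 CPM in DMSO libraries of MDA-MB-231, and to 2.55 to 2.79 CPM in YES1i against 0.821 to 1.37 CPM in DMSO libraries of SUM159, with calls for the macrophage receptor gene CSF1R in MDA-MB-231 (11.4 CPM with YES1i, 8.59 CPM with DMSO, log2 fold change 0.41, edgeR adjusted p = 0.0136) and for CD14 in SUM159 (2.38 CPM with YES1i, 0.717 CPM with DMSO, 1.69, edgeR adjusted p = 1.42e-06). PTPRC, the pan-leukocyte gene, averaged at most 0.379 CPM, and the T cell gene CD3E at most 0.0429 CPM, in any group. The fibroblast and muscle list summed to 12.8 to 16.5 CPM in YES1i against 25.8 to 29.6 CPM in DMSO libraries of MDA-MB-231, and to 59.1 to 68.3 CPM in YES1i against 49.9 to 55.6 CPM in DMSO libraries of SUM159. Mitochondrial ribosomal RNA made up 1.33 ± 0.0502% of counts in YES1i and 0.644 ± 0.0283% in DMSO libraries of MDA-MB-231, and 1.34 ± 0.0977% in YES1i and 0.731 ± 0.0749% in DMSO libraries of SUM159 (SD, n = 4 each; two-sided exact permutation p = 0.0286 in each line, the smallest that 70 regroupings allow). The part of the marker levels and of this RNA makeup in the results below was not tested.

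KCP, a gene on the minus strand of chromosome 7 (128862451 to 128910719, hg38), was nearly silent in 3 of the 4 groups and detected at a low level per length in the other. It was measured at 15.7, 12.4, 12.4 and 9.49 CPM in the YES1i libraries of MDA-MB-231, against 0.436, 0.544, 0.617 and 0.592 CPM in the DMSO libraries. Even the lowest treated library lay far above the highest control library. Mean levels were 12.5 ± 2.55 CPM with YES1i and 0.547 ± 0.0804 CPM with DMSO (SD, n = 4 each), a ratio of 22.8 and a fitted log2 difference of 4.49 (SE 0.22). That estimate ran from 4.37 to 4.60 when any 1 library was left out. Because the same values chose the gene, no test is attached to them.

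SUM159 gave almost no KCP reads in either condition. The YES1i libraries of SUM159 held 0, 1, 0 and 1 read, and the DMSO libraries 1, 0, 1 and 0. All 8 lie under the 3-count limit, so no fold change is given, and a change of KCP in SUM159 was not detectable at this depth. The gene passed the low-count filter only through the YES1i libraries of MDA-MB-231. Per transcript length its level there was 1.51 RPKM, which is CPM per kilobase of transcript, in MDA-MB-231 with YES1i against 0.0663 RPKM with DMSO.

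The KCP locus overlaps other genes on the opposite strand, and the counting rules for strand and overlap are not known here, so reads of KCP and of these genes may have been mixed. ATP6V1F, a subunit of the vacuolar proton pump (128862826 to 128865844 on chromosome 7), shares 187 exon bases with KCP, which is 2.26% of the 8259 exon bases of KCP. ATP6V1F averaged 94.5 ± 5.91 CPM with YES1i and 72.4 ± 3.79 CPM with DMSO in MDA-MB-231 (SD, n = 4 each; log2 fold change 0.38, edgeR adjusted p = 7.36e-06). In SUM159 it averaged 68.0 ± 6.08 CPM with YES1i and 69.7 ± 3.57 CPM with DMSO (n = 4 each; -0.04, edgeR adjusted p = 0.668). Whether reads of these genes were counted for KCP was not tested. ATP6V1FNB (128866308 to 128872044), which shares no exon base with KCP, rose by a log2 fold change of 1.86 in MDA-MB-231 (4.15 ± 0.796 CPM with YES1i, 1.13 ± 0.442 CPM with DMSO; edgeR adjusted p = 2.23e-06). ATP6V1FNB also rose in SUM159 (1.33 ± 0.579 CPM with YES1i, 0.598 ± 0.221 CPM with DMSO; log2 fold change 1.05, edgeR adjusted p = 0.0114). FLNC-AS1, on the same strand as KCP, shares 102 exon bases with it and had 40 reads over all libraries, 4.10% of the KCP total.

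**Figure D1:**
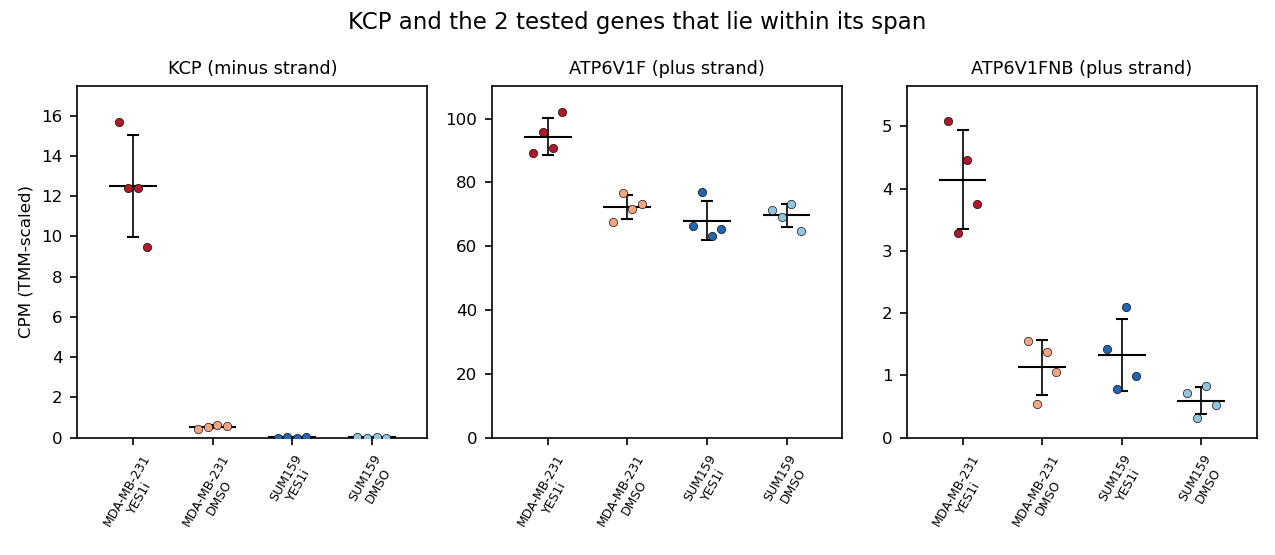
Levels of KCP and of the opposite-strand genes ATP6V1F and ATP6V1FNB in CPM, with a point for each of the 16 libraries and the mean ± SD of each group. KCP averages 12.5 CPM in MDA-MB-231 with YES1i and lies under 1 CPM in the 3 other groups, while ATP6V1F lies between 63.3 and 102 CPM everywhere.

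The protein-coding genes whose log2 CPM ran most like that of KCP over the 16 libraries were CSRP3 (Pearson r = 0.994), CPD (0.992), CSF1 (0.989), NPC2 (0.988) and GSN (0.988), out of 13798 compared. These correlations describe libraries that share 4 groups, and a gene that is high in MDA-MB-231 with YES1i has a high value by that alone. CSF1, the macrophage growth factor, averaged 924 CPM with YES1i (909 to 944 over 4 libraries) and 283 CPM with DMSO (272 to 294) in MDA-MB-231, and 158 CPM with YES1i (147 to 169.7) and 179.8 CPM with DMSO (164 to 195) in SUM159. CSRP3, a muscle LIM-domain protein gene, had no read in the 8 SUM159 libraries and averaged 3.42 ± 0.327 CPM with YES1i and 0.313 ± 0.132 CPM with DMSO in MDA-MB-231.

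**Figure D2:**
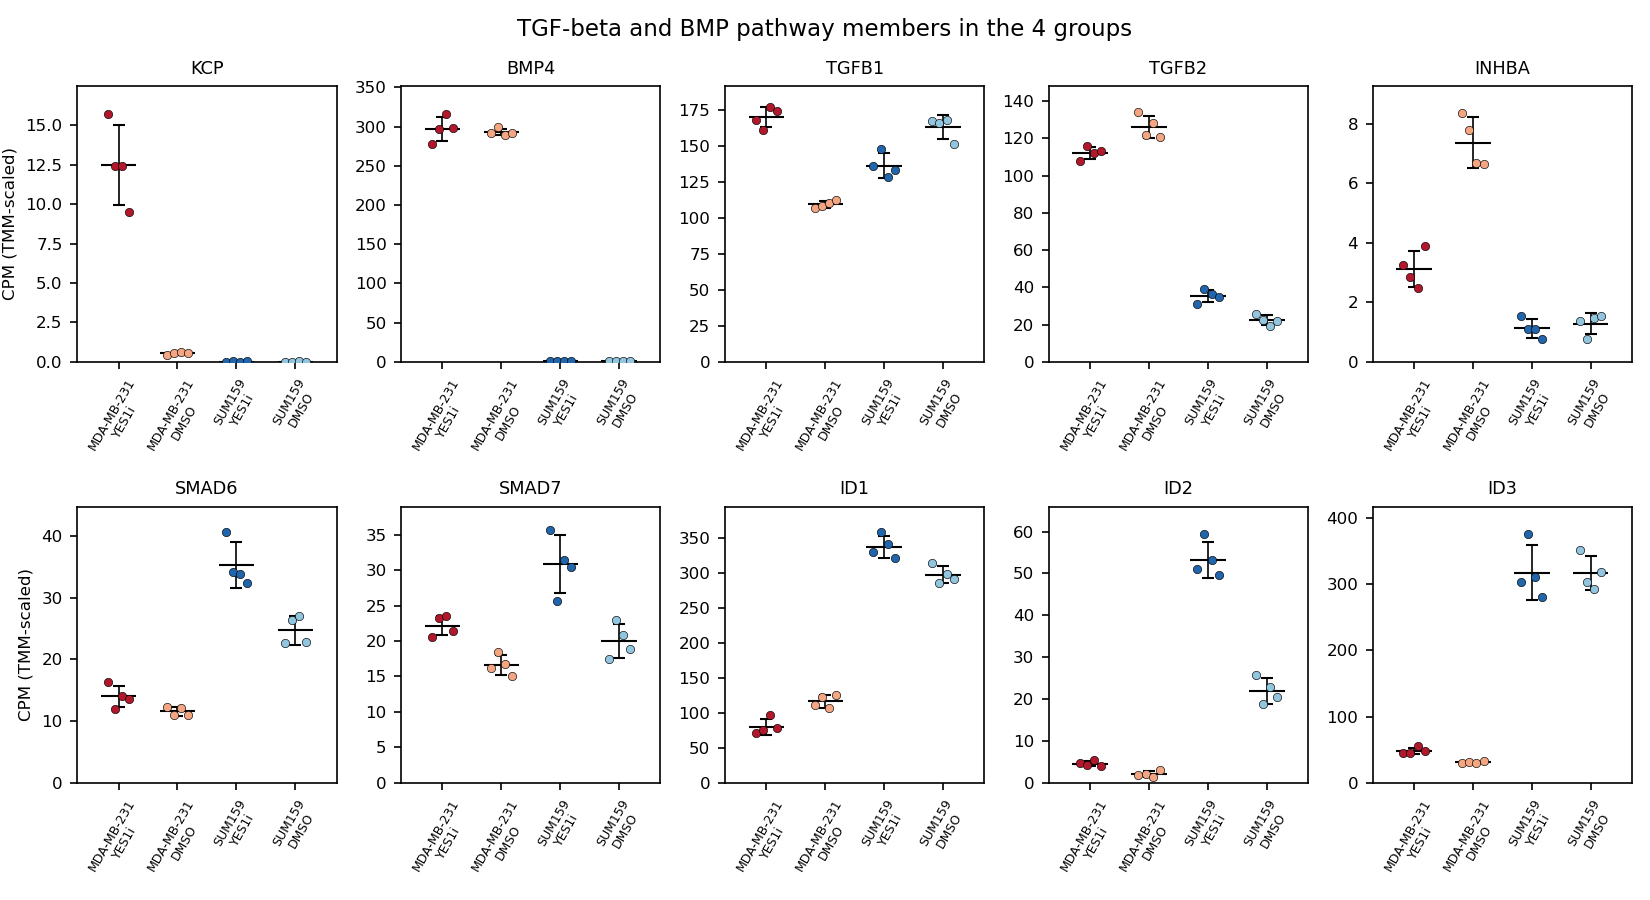
Levels of the 10 members in CPM, each panel on its own linear axis from 0, with a point per library and the mean ± SD of each group of 4. KCP and BMP4 lie near 0 in SUM159, ID1, ID2 and ID3 are higher in SUM159 than in MDA-MB-231, and the YES1i and DMSO libraries of SUM159 do not overlap for TGFB1, TGFB2, SMAD6, SMAD7, ID1 and ID2.

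In SUM159, whose treatment contrast the rule did not use, 9 members could be tested. The genes TGFB2, SMAD6, SMAD7, ID1 and ID2 rose, TGFB1 fell, and BMP4, INHBA and ID3 were not called at an edgeR adjusted p under 0.05. Among all 17647 tested genes 25.1% rose, 26.5% fell and 51.6% were called either way in this line, which is the background for 5 rises and 1 fall among 9. The YES1i and DMSO libraries did not overlap for 6 of the 9, as for 43.3% of all tested genes. In MDA-MB-231, where the values are a description, 8 of the 10 members showed no overlap. KCP is among these 8, and because its values chose the set, its place there was fixed in advance. Without overlap, KCP, ID2, ID3, SMAD7 and TGFB1 were higher with YES1i and ID1, TGFB2 and INHBA lower. Among all tested genes of this line 47.3% showed no overlap and 48.9% were called either way. The median log2 fold change of all tested genes was 0.03 in MDA-MB-231 and 0.02 in SUM159. Scaling to the upper quartile moved the SUM159 median to 0.14, and changes in that line are to be read against a shift of this size. In bulk RNA of a culture, fewer cells of a kind and less RNA per cell cannot be told apart.

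**Figure D3:**
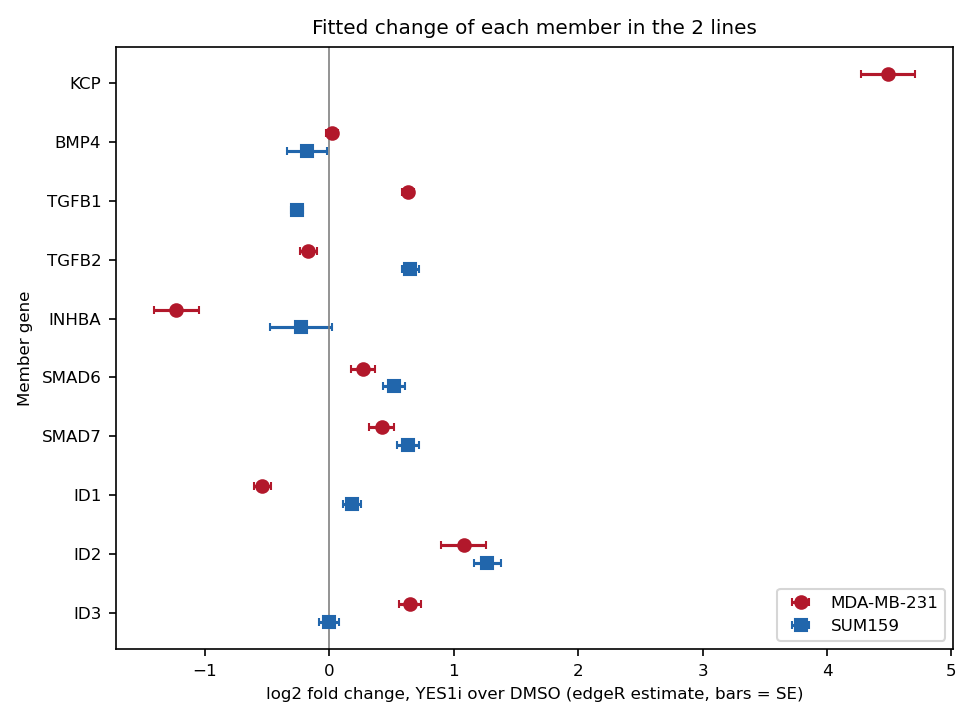
Fitted log2 fold change of YES1i over DMSO for each member, with circles for MDA-MB-231, squares for SUM159 and bars for the SE; KCP has no SUM159 point because its libraries hold 0 or 1 read. KCP stands at 4.49 in MDA-MB-231, and ID1, TGFB1 and TGFB2 lie on opposite sides of 0 in the lines.

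BMP4, the BMP ligand gene of the set (chromosome 14, 53949736 to 53958761, minus strand), differed between the lines, each in its own medium, and not clearly with treatment. MDA-MB-231 libraries with YES1i had 278, 297, 316 and 298 CPM, against 292, 299, 289 and 292 CPM with DMSO. Treated and control libraries overlapped, with a fitted log2 difference of 0.02 (SE 0.05). SUM159 libraries with YES1i had 1.31, 0.974, 1.32 and 1.69 CPM, against 1.63, 1.55, 1.56 and 1.17 CPM with DMSO, again overlapping (log2 fold change -0.18, SE 0.16, edgeR adjusted p = 0.424). Between the DMSO controls of the lines BMP4 averaged 293 ± 4.40 CPM in MDA-MB-231 and 1.48 ± 0.206 CPM in SUM159 (SD, n = 4 each), a log2 difference of 7.60 (SE 0.09, edgeR adjusted p = 1.60e-32). Per length it was the highest of the ligand genes in MDA-MB-231, at 95.1 RPKM with DMSO, where TGFB1 had 33.8, TGFB2 24.5 and INHBA 0.888 RPKM.

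TGFB1, the gene of the most widely made TGF-beta ligand (chromosome 19, 41301587 to 41353911, minus strand), stood on opposite sides of its control in the lines. MDA-MB-231 had 168, 161, 177 and 174 CPM with YES1i, against 107, 108, 110.1 and 112 CPM with DMSO. SUM159 had 136, 148, 128 and 133 CPM with YES1i, against 167, 166, 168 and 151 CPM with DMSO. Every treated library of MDA-MB-231 lay above every control library, and in SUM159 every treated library lay below every control library. The fitted log2 difference was 0.63 (SE 0.05) in MDA-MB-231, and TGFB1 fell in SUM159, with a fitted log2 value of -0.26 (SE 0.05, edgeR adjusted p = 1.03e-04). With upper quartile scaling the SUM159 value was -0.14 (adjusted p = 0.0211). By level, treated MDA-MB-231 and control SUM159 came first and overlapped, treated SUM159 came next and control MDA-MB-231 last, both without overlap.

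Reads of TGFB1 may also be mixed with those of a neighbour. HNRNPUL1, an RNA-binding protein gene on the opposite strand with 297% of the total count of TGFB1, shares 215 exon bases with it, or 6.64% of the exon bases of TGFB1. HNRNPUL1 fell in both lines, with 357 CPM in YES1i and 508 CPM in DMSO libraries of MDA-MB-231 and 363 CPM in YES1i and 474 CPM in DMSO libraries of SUM159 on average (edgeR adjusted p = 1.78e-08 and 2.37e-06). Its direction was opposite to that of TGFB1 in MDA-MB-231 and the same in SUM159, and mixing of reads was not tested. CCDC97, with 22.7% of the count of TGFB1, overlaps its span but shares no exon base with it, and averaged 43.2 CPM with YES1i and 37.0 CPM with DMSO in MDA-MB-231 and 26.4 CPM with YES1i and 26.0 CPM with DMSO in SUM159.

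TGFB2, a second TGF-beta ligand gene (chromosome 1, 218346235 to 218444619, plus strand), showed the reverse order. SUM159 had 31.3, 39.0, 36.4 and 35.1 CPM with YES1i, against 26.0, 22.6, 19.5 and 22.0 CPM with DMSO. The groups did not overlap, and TGFB2 rose by 0.65 on the log2 scale (SE 0.07, edgeR adjusted p = 2.32e-08). MDA-MB-231 had 108, 116, 112 and 113 CPM with YES1i, against 134, 122, 128 and 121 CPM with DMSO, also without overlap but with a small fitted difference of -0.17 (SE 0.07). In control cells TGFB2 was the higher in MDA-MB-231, with 126 ± 6.04 CPM against 22.5 ± 2.68 CPM in SUM159 (SD, n = 4 each; log2 difference 2.48, SE 0.07, edgeR adjusted p = 9.85e-23).

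INHBA encodes the beta A subunit of activin A (chromosome 7, 41667168 to 41705834, minus strand) and was a low-level gene in both lines. MDA-MB-231 had 3.26, 2.86, 2.49 and 3.90 CPM with YES1i, against 8.37, 7.78, 6.70 and 6.65 CPM with DMSO. All treated libraries lay below all controls, with a fitted log2 difference of -1.23 (SE 0.18). In SUM159 the groups overlapped at 1.55, 1.11, 1.10 and 0.778 CPM with YES1i and 1.37, 0.774, 1.47 and 1.53 CPM with DMSO (log2 fold change -0.23, SE 0.25, edgeR adjusted p = 0.452). Control cells of MDA-MB-231 exceeded those of SUM159 by 2.49 on the log2 scale (SE 0.20, edgeR adjusted p = 2.17e-12).

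The inhibitory SMAD genes were higher with YES1i in SUM159, where they could be tested. SMAD6 (chromosome 15, 66702228 to 66782848, plus strand) had 40.7, 34.1, 33.8 and 32.4 CPM in SUM159 with YES1i, against 22.6, 26.4, 27.0 and 22.8 CPM with DMSO. It rose by 0.52 on the log2 scale (SE 0.09, edgeR adjusted p = 1.74e-05). SMAD7 (chromosome 18, 48919853 to 48952052, minus strand) had 35.7, 25.7, 31.4 and 30.4 CPM with YES1i, against 17.4, 22.9, 20.8 and 18.8 CPM with DMSO. It rose by 0.63 (SE 0.09, edgeR adjusted p = 2.03e-06), and neither gene's groups overlapped.

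In MDA-MB-231, SMAD6 had 16.3, 12.0, 14.0 and 13.6 CPM with YES1i, against 12.3, 10.9, 12.1 and 11.0 CPM with DMSO. One treated library fell within the range of the controls, and the fitted log2 difference was 0.27 (SE 0.10). SMAD7 had 20.6, 23.2, 23.5 and 21.4 CPM with YES1i, against 16.2, 18.4, 16.8 and 15.1 CPM with DMSO, with no overlap and a fitted difference of 0.42 (SE 0.10). Ordered by level, SMAD7 in treated MDA-MB-231 and in control SUM159 overlapped, as did control SUM159 and control MDA-MB-231. SMAD6 differed between the control cells of the lines, each in its own medium, with 11.6 ± 0.710 CPM in MDA-MB-231 and 24.7 ± 2.33 CPM in SUM159 (SD, n = 4 each; log2 difference -1.09, SE 0.10, edgeR adjusted p = 2.62e-11).

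ID1 (chromosome 20, 31605283 to 31606515, plus strand) differed in direction between the lines. MDA-MB-231 had 70.8, 74.8, 96.9 and 78.3 CPM with YES1i, against 111, 122, 107 and 126 CPM with DMSO. SUM159 had 329.7, 358, 341 and 321 CPM with YES1i, against 315, 286, 298 and 292 CPM with DMSO. The groups did not overlap in either line, with treated libraries low in MDA-MB-231 and high in SUM159. The fitted log2 difference was -0.54 (SE 0.07) in MDA-MB-231 and 0.18 (SE 0.07, edgeR adjusted p = 0.0350) in SUM159. The SUM159 call was lost without DMSO replicate 2, 3 or 4 (adjusted p = 0.0816, 0.0537 and 0.0856) or YES1i replicate 2 or 3 (adjusted p = 0.104 and 0.0681).

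ID2 (chromosome 2, 8678845 to 8684453, plus strand) was higher with YES1i in both lines, at very different levels. SUM159 had 51.1, 59.3, 53.1 and 49.6 CPM with YES1i, against 25.8, 18.7, 22.8 and 20.5 CPM with DMSO, the largest tested rise among the members there (log2 fold change 1.27, SE 0.11, edgeR adjusted p = 1.79e-10). MDA-MB-231 had 4.75, 4.32, 5.37 and 3.90 CPM with YES1i, against 1.94, 2.12, 1.47 and 3.10 CPM with DMSO. No treated library of either line reached down to its controls, and the fitted log2 difference in MDA-MB-231 was 1.08 (SE 0.18). The promoter stretch of ID2 shown above holds neither SMAD word.

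ID3 (chromosome 1, 23557918 to 23559794, minus strand) differed with treatment only in the description of MDA-MB-231. That line had 44.2, 45.4, 55.1 and 47.6 CPM with YES1i, against 29.8, 31.0, 30.1 and 32.1 CPM with DMSO, without overlap (fitted log2 difference 0.65, SE 0.09). SUM159 had 303, 376, 311 and 280.2 CPM with YES1i, against 352, 303, 293 and 318 CPM with DMSO. These overlapped, and the fitted log2 value was 0.00 (SE 0.08, edgeR adjusted p = 0.987). Within MDA-MB-231, then, ID1 was lower with YES1i while ID2 and ID3 were higher.

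Per length, the ID genes kept one order in both lines: in control cells ID1 had 94.5 RPKM in MDA-MB-231 and 242 RPKM in SUM159, ID3 had 17.1 RPKM in MDA-MB-231 and 176 RPKM in SUM159, and ID2 had 0.978 RPKM in MDA-MB-231 and 9.95 RPKM in SUM159. All 3 were lower in control MDA-MB-231 than in control SUM159, by log2 differences of -1.35 (SE 0.07) for ID1, -3.35 (SE 0.15) for ID2 and -3.37 (SE 0.09) for ID3 (edgeR adjusted p = 5.73e-15, 2.50e-17 and 1.30e-19). BMP4 was near 0 in SUM159, where the ID genes were highest. Of the 7 other tested BMP and GDF ligands, 2 were higher and 4 lower in control MDA-MB-231 than in control SUM159. Any relation of ligand levels to ID levels was not tested. Of the 9 tested members, all but KCP, 3 were higher and 6 lower in control MDA-MB-231 than in control SUM159, where 37.8% of all tested genes were higher, 38.7% lower and 76.6% either. Control libraries of the lines did not overlap for 8 of the 9, as for 72.4% of tested genes. The SMAD7 difference (-0.26, SE 0.10, edgeR adjusted p = 0.0175) lost its call without MDA-MB-231 DMSO replicate 1 or 4 (adjusted p = 0.0533 and 0.0876) or SUM159 DMSO replicate 2 or 3 (0.100 and 0.0607).

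The difference of the responses, MDA-MB-231 minus SUM159, holds the contrast that chose the set and is given for members with no test. It was 0.89 (SE 0.07) for TGFB1, 0.64 (SE 0.12) for ID3, -0.72 (SE 0.10) for ID1, -0.82 (SE 0.10) for TGFB2 and -1.0 (SE 0.31) for INHBA. It was 0.20 (SE 0.17) for BMP4, -0.19 (SE 0.21) for ID2, -0.24 (SE 0.13) for SMAD6 and -0.21 (SE 0.14) for SMAD7.

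Beyond the members, 10 lists of 123 further pathway genes were drawn up by role, and 91 of them passed the low-count filter. The lists were chosen with earlier results of these data known, so the counts below may not be independent of the data. In MDA-MB-231, where these genes could be tested, 32 rose and 21 fell with a median log2 fold change of 0.14, against 26.8% of all tested genes rising, 22.1% falling and a median of 0.03. In SUM159, 27 rose and 24 fell with a median of 0.00, and with upper quartile scaling 39 rose and 16 fell. All tested genes of SUM159 divided into 4431 rises and 4674 falls, or 5985 and 3454 with upper quartile scaling. The responses differed between the lines for 43 of the 91 genes, 25 more positive and 18 more negative in MDA-MB-231, where 19.1% of all tested genes were more positive, 12.1% more negative and 31.1% either. With upper quartile scaling that split was 16 and 26, while that of all tested genes, 3362 more positive and 2127 more negative, became 2339 and 2987. The counts by list that follow are to be read against 26.8% of all tested genes rising and 22.1% falling in MDA-MB-231, and 25.1% rising and 26.5% falling in SUM159. The low-count filter used all libraries, so some listed genes had 3 or fewer reads in a group of one line, where a call or its absence rests on few reads: DCN, MSTN and MSX1 in MDA-MB-231, and BMPER, CHRDL1, FST, ID4, INHBB and NRROS in SUM159.

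**Figure D4:**
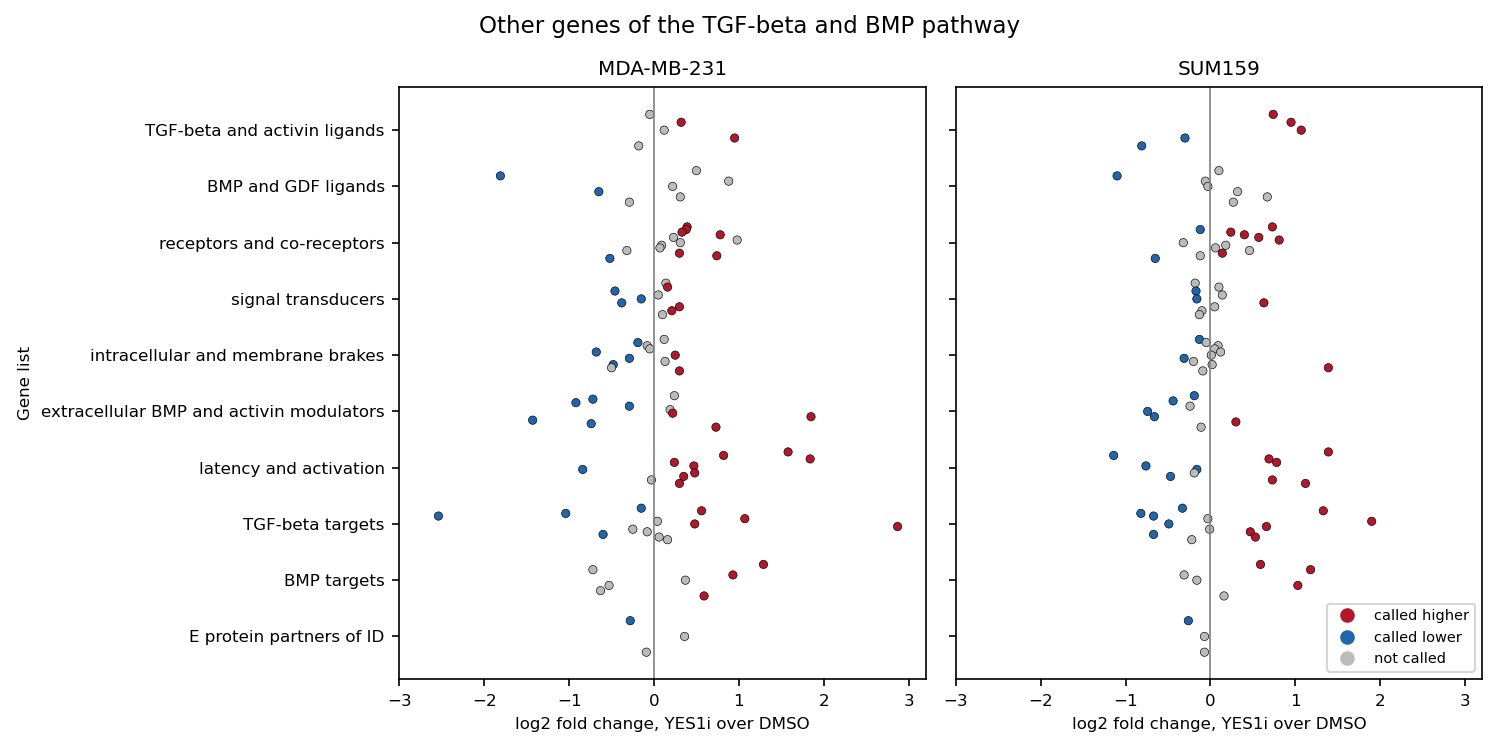
Log2 fold change of YES1i over DMSO for the tested pathway genes in 10 lists, MDA-MB-231 on the left and SUM159 on the right, a point per gene coloured by its call at an edgeR adjusted p under 0.05. Genes with 3 or fewer reads in either group of a line are left out (3 in MDA-MB-231, 6 in SUM159), and the latency list shows 8 rises in MDA-MB-231.

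Among 11 tested genes of the latency and activation list, which holds latent TGF-beta binding proteins, their relatives and activators of TGF-beta, 8 rose and 1 fell in MDA-MB-231 and 5 rose and 4 fell in SUM159. LTBP2 is among the rises in MDA-MB-231 and the falls in SUM159, and DCN had 0 reads in MDA-MB-231. LTBP3, a latent TGF-beta binding protein, averaged 186 ± 13.3 CPM with YES1i and 52.1 ± 3.34 CPM with DMSO in MDA-MB-231 (SD, n = 4 each), a rise of 1.84 (SE 0.08, edgeR adjusted p = 2.08e-15). LTBP3 also rose in SUM159, by 0.69 (SE 0.07, edgeR adjusted p = 4.51e-08). LTBP1, of the same family, rose in SUM159 by 1.39 (SE 0.10, edgeR adjusted p = 4.88e-12), with 11.2 ± 1.82 CPM with YES1i and 4.30 ± 0.552 CPM with DMSO, and in MDA-MB-231 by 1.58 (SE 0.07, edgeR adjusted p = 6.92e-17). LTBP2, a relative that binds fibrillin and not latent TGF-beta, rose in MDA-MB-231 (0.82, SE 0.07) and fell in SUM159 (-1.14, SE 0.09), with a difference of 1.96 (edgeR adjusted p = 7.65e-14). LTBP4 rose less in MDA-MB-231 (0.24) than in SUM159 (0.78), with a difference of -0.54 (edgeR adjusted p = 4.01e-04). THBS1, thrombospondin 1, which activates latent TGF-beta, fell in both lines, to 984 ± 28.8 CPM with YES1i against 1766 ± 52.7 CPM with DMSO in MDA-MB-231 (-0.84, SE 0.05, edgeR adjusted p = 4.37e-15) and to 905 ± 33.8 CPM against 1529 ± 59.5 CPM in SUM159 (-0.76, SE 0.05, edgeR adjusted p = 7.22e-14).

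The list of secreted BMP and activin modulators, the class to which KCP belongs, also holds the membrane protein CRIM1, which fell in both lines. Of the 10 tested genes of this list, 3 rose and 5 fell in MDA-MB-231 and 1 rose and 5 fell in SUM159. The falls in SUM159 include CHRDL1, which rests on 6 reads of a single library. The activin antagonist FST, follistatin, averaged 19.7 ± 1.82 CPM with YES1i and 53.1 ± 4.45 CPM with DMSO in MDA-MB-231 (SD, n = 4 each; -1.43, SE 0.09, edgeR adjusted p = 7.87e-13) and had 0 reads with YES1i and 2 with DMSO over all SUM159 libraries. SOST, sclerostin, known best as a Wnt inhibitor, rose in MDA-MB-231 with 9.29 ± 0.514 CPM with YES1i and 2.56 ± 0.331 CPM with DMSO (1.85, SE 0.15, edgeR adjusted p = 1.04e-11), and fell in SUM159 (-0.66, SE 0.14, edgeR adjusted p = 2.03e-04). NBL1, a BMP antagonist of the DAN family, fell in SUM159 (-0.74, SE 0.07, edgeR adjusted p = 7.10e-10) and rose in MDA-MB-231 (0.22, SE 0.06, edgeR adjusted p = 0.00497), with a difference of 0.96 (edgeR adjusted p = 4.90e-09). FSTL1, a follistatin-like glycoprotein, rose in SUM159 (0.30, SE 0.05) and fell in MDA-MB-231 (-0.74, SE 0.05), a difference of -1.04 (edgeR adjusted p = 1.77e-12). CHRDL1, a chordin-like BMP antagonist, averaged 7.56 ± 0.916 CPM with YES1i and 6.44 ± 0.574 CPM with DMSO in MDA-MB-231 and had 0 reads with YES1i and 6 with DMSO in SUM159, all 6 in DMSO replicate 1. Its difference of responses was called (edgeR adjusted p = 0.0438), and was 0.24 and not called without that library.

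Of 13 tested receptors and co-receptors 6 rose and 1 fell in MDA-MB-231, and 6 rose and 2 fell in SUM159. ACVR1, a type I receptor for BMPs, averaged 28.6 ± 1.22 CPM with YES1i and 16.7 ± 1.40 CPM with DMSO in MDA-MB-231 (SD, n = 4 each; 0.78, SE 0.07, edgeR adjusted p = 4.61e-10). ACVR1 also rose in SUM159 (0.40, SE 0.07, edgeR adjusted p = 1.78e-05). TGFBR1, the type I TGF-beta receptor, rose by 0.73 (SE 0.08) in SUM159, with 81.1 ± 11.3 CPM with YES1i and 49.1 ± 3.12 CPM with DMSO (edgeR adjusted p = 1.19e-08), and by 0.39 (SE 0.07) in MDA-MB-231 (edgeR adjusted p = 5.83e-05), a difference of -0.34 (edgeR adjusted p = 0.0153). RGMB, a BMP co-receptor, fell in both, by -0.52 (SE 0.08) in MDA-MB-231 and -0.65 (SE 0.09) in SUM159 (edgeR adjusted p = 4.03e-06 and 3.76e-07). ENG, endoglin, an accessory receptor of endothelium, rose in MDA-MB-231 at a low level, with 3.24 ± 0.673 CPM with YES1i and 1.92 ± 0.333 CPM with DMSO (0.74, SE 0.15, edgeR adjusted p = 1.15e-04).

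The signal transducers gave 3 rises and 3 falls of 9 in MDA-MB-231 and 1 rise and 2 falls in SUM159. SMAD3, the TGF-beta and activin effector, averaged 196 ± 2.88 CPM with YES1i and 270.3 ± 4.94 CPM with DMSO in MDA-MB-231 (SD, n = 4 each; -0.46, SE 0.04, edgeR adjusted p = 5.10e-10). Its fall in SUM159 (-0.17, SE 0.04, edgeR adjusted p = 0.00237) lost its call with upper quartile scaling (-0.05, adjusted p = 0.356). SMAD9, a BMP effector, rose in SUM159 with 58.5 ± 1.54 CPM with YES1i and 37.9 ± 3.73 CPM with DMSO (0.63, SE 0.08, edgeR adjusted p = 6.04e-08) and fell in MDA-MB-231 (-0.38, SE 0.14, edgeR adjusted p = 0.0266). ZFYVE9, which anchors SMADs to the receptor, rose in MDA-MB-231 (0.30, SE 0.06, edgeR adjusted p = 1.16e-04). Of the 11 intracellular and membrane brakes 2 rose and 4 fell in MDA-MB-231 and 1 rose and 2 fell in SUM159. SKIL, the SMAD corepressor SnoN, fell in MDA-MB-231 with 14.3 ± 1.34 CPM with YES1i and 22.8 ± 1.99 CPM with DMSO (-0.68, SE 0.08, edgeR adjusted p = 7.93e-08). PPM1A, a phosphatase of SMADs, rose in MDA-MB-231 (0.30, SE 0.05, edgeR adjusted p = 3.82e-05). TGIF2, another corepressor, fell in both lines, by -0.31 (SE 0.07, edgeR adjusted p = 6.76e-04) in SUM159 and -0.29 (SE 0.07, edgeR adjusted p = 0.00167) in MDA-MB-231.

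Of 13 tested TGF-beta target genes 4 rose and 4 fell in MDA-MB-231 and 5 rose and 5 fell in SUM159, so the list had no common direction. ANGPTL4, a secreted inhibitor of lipoprotein lipase, averaged 33.5 ± 2.04 CPM with YES1i and 4.56 ± 0.618 CPM with DMSO in MDA-MB-231 (SD, n = 4 each; 2.87, SE 0.12, edgeR adjusted p = 1.66e-17). ANGPTL4 rose less in SUM159 (0.66, SE 0.13, edgeR adjusted p = 1.39e-04). IL11, a cytokine, averaged 13.8 ± 2.05 CPM with YES1i and 80.1 ± 4.79 CPM with DMSO in MDA-MB-231 (edgeR adjusted p = 2.45e-16). IL11 also fell in SUM159, at a low level (-0.67, SE 0.25, edgeR adjusted p = 0.0313). TAGLN, an actin-binding protein of smooth muscle, rose in SUM159, with 36.0 ± 5.83 CPM with YES1i and 9.69 ± 0.506 CPM with DMSO (1.90, SE 0.10, edgeR adjusted p = 1.85e-15). CTGF, a matricellular protein gene, fell in SUM159 by -0.82 (SE 0.06, edgeR adjusted p = 1.90e-12) and in MDA-MB-231 by -1.04 (SE 0.06, edgeR adjusted p = 3.50e-15).

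BMP target genes other than ID1 to ID3 gave 3 rises and no fall of 8 tested in MDA-MB-231 and 4 rises and no fall in SUM159. ID4 had 0 reads in SUM159 and MSX1 1 read in MDA-MB-231, so neither could fall there. ATOH8, a BMP-induced transcription factor, rose in both lines, with 24.0 ± 2.19 CPM with YES1i and 12.6 ± 0.413 CPM with DMSO in MDA-MB-231 (0.93, SE 0.08, edgeR adjusted p = 7.77e-11) and 424 ± 41.0 CPM with YES1i and 188 ± 12.4 CPM with DMSO in SUM159 (1.18, SE 0.06, edgeR adjusted p = 3.51e-15). RUNX2, a transcription factor of bone, rose by 0.59 (SE 0.06) in MDA-MB-231 and differed from its SUM159 response by 0.42 (edgeR adjusted p = 8.02e-04). Of the E proteins that ID proteins bind, TCF3 fell in both lines, by -0.28 (SE 0.05) in MDA-MB-231 and -0.26 (SE 0.05) in SUM159 (edgeR adjusted p = 6.77e-05 and 1.30e-04). TCF4 and TCF12 were not called in either line.

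The other ligand genes were mostly low. Of the TGF-beta and activin group 3 of 6 rose and none fell in MDA-MB-231, and 4 rose and 2 fell in SUM159. These rises include MSTN in MDA-MB-231 and INHBB in SUM159, both near the limit of detection there. INHBB, the beta B subunit of activin B, averaged 22.0 ± 0.664 CPM with YES1i and 17.6 ± 1.26 CPM with DMSO in MDA-MB-231 (SD, n = 4 each; 0.32, SE 0.10, edgeR adjusted p = 0.00725), and had 8 reads with YES1i and 1 with DMSO over all SUM159 libraries. MSTN, myostatin, fell in SUM159 with 6.19 ± 0.438 CPM with YES1i and 10.9 ± 0.729 CPM with DMSO (-0.81, SE 0.15, edgeR adjusted p = 2.74e-05), while MDA-MB-231 had 15 reads with YES1i and 3 with DMSO. Of the 7 tested BMP and GDF ligands none rose in either line, 2 fell in MDA-MB-231, GDF5 among them (-0.65, SE 0.21, edgeR adjusted p = 0.0101), and 1 fell in SUM159. In DMSO controls 36 of the 91 pathway genes were higher and 44 lower in MDA-MB-231 than in SUM159, where 37.8% of all tested genes were higher and 38.7% lower. FST averaged 53.1 CPM in control MDA-MB-231 against 0.0143 CPM in control SUM159, IL11 80.1 against 1.43 CPM, SMURF2, a ubiquitin ligase for SMADs and receptors, 273 against 41.3 CPM, ENG 1.92 against 78.7 CPM and COL1A1, a fibrillar collagen gene, 11.2 against 745 CPM. Overlaps with other genes were looked up for the 10 members and not for these lists.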

How the data were processed

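Poly(A) RNA of 16 libraries was measured. The authors deposited one table of raw read counts per gene, with gene lengths, names and positions. Per the submitters' processing notes, HISAT2 2.0.5, featureCounts 1.5.0-p3 and the build hg38 were used, while the sources used here do not give strand and overlap settings. All 58735 gene identifiers of the table are in GENCODE release 29, 58724 of them at the same coordinates, and its exons gave the overlaps.

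Under R 4.3.3, counts were filtered with filterByExpr, scaled by TMM and fitted as 4 group means with edgeR 4.0.16 (quasi-likelihood F test, robust option), which uses limma 3.58.1. The 17647 tested genes of each contrast shared one Benjamini-Hochberg adjustment, and calls needed an adjusted p under 0.05. CPM uses TMM-scaled totals, and RPKM divides CPM by the deposited length. Standard errors were derived from the F statistic. Limits of 3 counts cover counting error only. The steps were tested on simulated data, with changes set in genes at 5 CPM or more. Changes of 1.25-fold were recovered for 48% of genes in MDA-MB-231 and 64% in SUM159, and of 1.5-fold for 98% and 96%. Of the calls made there, 4.95% in MDA-MB-231 and 6.25% in SUM159 were false.

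Named genes were the 10 members, overlapping genes with at least 10% of a member's count, in each comparison and list the called gene with the largest rise and the largest fall at 5 CPM or more, the 5 genes most like KCP, and YES1. The members and lists were chosen with earlier results of these data known, and the KCP promoter was added to those first planned. Alternatives were scaling by RLE or the upper quartile, limma-voom, DESeq2 1.42.0, other low-count filters, each line alone, a replicate block, an adjusted p under 0.01 and each library left out.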

Additional observations from a re-analysis of the deposited data

Results flagged for a closer look

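Among the members, 3 went opposite ways in the lines, with no overlap of YES1i and DMSO libraries in either line. No overlap was seen for 47.3% of all tested genes in MDA-MB-231 and for 43.3% in SUM159. The share of all tested genes that also went opposite ways was not counted. The differences of the responses, MDA-MB-231 minus SUM159, were not tested because they hold the contrast that chose the members. That of TGFB1 was 0.89, that of ID1 -0.72 and that of TGFB2 -0.82. The lowest DMSO library of SUM159 for TGFB1, replicate 4, stood apart at 151 CPM, with the other 3 at 166 to 168 CPM. Chance marks about 1 in 20 groups in this way, and 38 groups were looked at.

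Other pathway genes had responses that differed between the lines in the edgeR interaction test. The log2 difference of the responses was 2.22 for ANGPTL4, 1.96 for LTBP2, 0.86 for ENG, 0.42 for RUNX2, 0.39 for PPM1A and 0.31 for TAB1, a kinase-activating adaptor. It was -1.87 for IL11, -1.04 for FSTL1, -1.01 for SMAD9, -0.80 for SKIL, -0.56 for AMH, -0.54 for LTBP4 and -0.34 for TGFBR1. The call of TAB1 was lost, at values of 0.22 to 0.31, without MDA-MB-231 DMSO replicate 1 or 3, any MDA-MB-231 YES1i replicate, SUM159 DMSO replicate 2 or 3, or SUM159 YES1i replicate 2 or 3. It was also lost in edgeR with RLE scaling (0.25, adjusted p = 0.0924) or upper quartile scaling (0.20, adjusted p = 0.191). The same held without the low-count filter (edgeR adjusted p = 0.0734), with a replicate block (edgeR adjusted p = 0.0544) and with DESeq2 (adjusted p = 0.106).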

How the results depend on the processing

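Of 3044 values recomputed under the alternatives, 2977 kept their direction and side of the threshold or moved by less than the spread, 48 lost their call, 19 moved and no called value reversed. Among values without a call, the ID2 difference of responses, -0.19, was 0.04 without MDA-MB-231 DMSO replicate 4, and the changes of BMP4 in MDA-MB-231 and of ID3 in SUM159, both near 0, had either sign. Pathway genes with a more positive response in MDA-MB-231 numbered 25, but 16 with upper quartile scaling and 16 at an adjusted p under 0.01, and all genes with a more negative one numbered 2127, but 1372 at an adjusted p under 0.01, as fewer genes pass a stricter threshold. Why the scaling mattered was not tested. With any library left out, these pathway genes numbered 20 to 24, members that rose in SUM159 4 to 5 and those that fell 1. Lost calls were those of ID1 in SUM159, SMAD7 between the control lines, SMAD3 in SUM159, AMH, TAB1, CHRDL1 and TGFBR1 between responses, and GDF5 in MDA-MB-231. The fitted difference of ID2 in MDA-MB-231 was 1.32 without DMSO replicate 4. Replicate numbers did not pair the samples, with correlations of same-numbered libraries from -0.387 to 0.0310. Differently numbered libraries of SUM159 ran from -0.372 (YES1i replicate 2, DMSO replicate 3) to 0.435 (YES1i replicate 2, DMSO replicate 1). The source of that spread was not tested. With a replicate block, 4 members rose in SUM159 in place of 5, since ID1 had an adjusted p of 0.0523. KCP in SUM159 is limited by depth, as 3 counts equal up to 0.193 CPM.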

Other observations

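Some pathway genes outside the naming rule, picked after their values were seen, also differed with treatment. TGFBI, a matrix protein induced by TGF-beta, averaged 8898 ± 320.3 CPM with YES1i and 3543 ± 135 CPM with DMSO in SUM159 (SD, n = 4 each; log2 fold change 1.33, edgeR adjusted p = 6.74e-19), and 173 ± 7.62 CPM with YES1i and 118 ± 1.54 CPM with DMSO in MDA-MB-231 (0.56, edgeR adjusted p = 9.87e-11). CRIM1, a membrane protein with cysteine-rich repeats of the chordin type, as KCP has, averaged 259.6 ± 11.7 CPM with YES1i and 492 ± 9.13 CPM with DMSO in MDA-MB-231 (-0.92, edgeR adjusted p = 1.33e-14). CRIM1 fell less in SUM159 (-0.19, edgeR adjusted p = 0.00430). JUNB rose in MDA-MB-231 (36.0 ± 2.21 CPM with YES1i, 25.8 ± 2.73 CPM with DMSO, n = 4 each; 0.48, edgeR adjusted p = 2.46e-06) and fell in SUM159 (47.3 ± 3.60 CPM with YES1i, 66.3 ± 1.21 CPM with DMSO, n = 4 each; -0.49, edgeR adjusted p = 8.44e-07), with a difference of the responses of 0.97 (edgeR adjusted p = 1.04e-08).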
